A study of Mus musculus with 51 samples.

Results

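The genes described here were 13 of the 34 factors whose log2 RPKM (reads scaled to transcript length and library size, on a log2 scale) was deposited for a differentiation of mouse embryonic stem cells (mESCs) towards neuromesodermal progenitors (NMPs). They were chosen by name, as the factors that the study listed as differentiation factors apart from *Tbra* and *Sox2*, and the rule used no measured value, although earlier results of these data were known when it was set. They comprised 6 ligands (*Fgf8*, *Wnt3a*, *Wnt4*, *Wnt5a*, *Wnt5b* and *Wnt7b*), the secreted inhibitor *Dkk1*, 3 intracellular members of the Wnt pathway (*Ctnnb1*, *Gsk3b* and *Axin2*) and 3 transcription factors (*Nkx1-2*, *Cdx1* and *Cdx2*). All 13 were measured in all 45 time course libraries and no gene was filtered out.

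The series holds polyA RNA-seq of male C57BL/6/Cast F1 mESCs of 2 genotypes. *Smchd1* wt cells carried Smchd1[fl/+] and *Smchd1* mat del cells carried Smchd1[del/+], in which the allele from the mother was deleted with Zp3-Cre, a Cre driven by an oocyte promoter. Mat del cells therefore kept the allele from the father. In the time course there were 23 wt libraries and 22 mat del libraries, 4 per genotype at day 0 and at 5 later times (1, 2, 2.5, 3 days and 4 days) except for 3 wt libraries at day 1 and 3 mat del libraries at days 0 and 2.5. Day 0 cells were in serum medium with LIF, all later cells had basic FGF, CHIR99021 was added to that at day 2, and GDF11 was added to both at day 3. No culture without CHIR99021 or without GDF11 was measured at days 2.5 to 4, so the effect of an agent and the passing of time cannot be told apart. Cells for days 0 and 1 were also seeded more densely than those for later days, which cannot be told apart from time either. By the labels replicates 1 to 3 came from line 1 and replicate 4 from line 2 of each genotype, so n counts libraries. The mat del groups of days 0 and 2.5 hold line 1 only and all other groups hold both lines. The study describes technical replicates of both lines. These labels show line 2 only as replicate 4, and not at all in those 2 groups. The spread may be partly technical, and the p-values measure only that spread. In a bulk library, fewer cells that express a gene and less RNA of it per cell cannot be told apart.

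Wnt ligands bind receptors at the cell surface and keep beta-catenin, the product of *Ctnnb1*, from being destroyed. In unstimulated cells a complex that contains the kinase GSK3B and AXIN proteins marks beta-catenin for degradation, and CHIR99021 is an inhibitor of GSK3 that stands in for the ligand. In the primitive streak and tailbud, Wnt and FGF signals sustain the NMPs, which give rise to spinal cord and paraxial mesoderm and express *Nkx1-2* and the *Cdx* genes, while GDF11 is a TGF-beta family ligand that acts in the change from trunk to tail.

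Sequence before the start site was held by the RefSeq table of GRCm38.p6 for 9 of the 13 genes, at 12 start sites, and none was used for *Fgf8*, *Wnt5a*, *Wnt7b* and *Cdx1*. The letters CTTTGAT or CTTTGAA, which TCF/LEF factors of the Wnt pathway are known to bind, were looked for on both strands of the 250 bases before each start. They stood at 2 of the 12 start sites (16.7%) and before 2457 of 32851 starts of all genes searched (7.48%). The 30 bases around both matches are given 5′ to 3′ on the strand of the gene with the matching letters in capitals. The *Wnt5b* match lay 71 bases before the innermost of its 3 starts, at chr6:119449439-119449468 (minus strand) in an intron of its longer transcripts, and the *Dkk1* match lay 117 bases before its RefSeq start, at chr19:30549595-30549624 (minus strand) in the untranslated part of the first exon of the GENCODE vM21 transcript.
Wnt5b: agtaagtctctCTTTGATctgctccctgtc
Dkk1: tcctcccaaagCTTTGAAatcccatcccgg

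None of the other 10 start sites held these letters, including that of *Axin2*, a target gene of the Wnt pathway that feeds back on it. The letters GGGCGG, the GC box, do not overlap with them and stood on either strand at 8 of the 12 start sites (66.7%) and before 10756 of the 32851 starts searched (32.7%). The median GC content of the 12 windows was 69.4%, against 52.4% in all windows, and the median number of CG pairs was 21.5 against 6.0. The 250 bases before the starts of *Axin2* (chr11:108920099-108920348, plus strand, outside any annotated gene) and of *Nkx1-2* (chr7:132599638-132599887, minus strand, in an intron of a *Fgfr2* transcript) are shown because the former is the feedback gene and the latter had the widest range of values. Their GC boxes are in capitals and read CCGCCC where the match was on the other strand. A match of letters is a description of the sequence and not a binding site.
Axin2: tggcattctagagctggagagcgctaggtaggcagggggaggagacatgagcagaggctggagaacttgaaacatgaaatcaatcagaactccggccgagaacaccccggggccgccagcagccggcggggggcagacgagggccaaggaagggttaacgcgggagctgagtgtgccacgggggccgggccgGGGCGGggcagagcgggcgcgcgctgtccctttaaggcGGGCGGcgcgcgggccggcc
Nkx1-2: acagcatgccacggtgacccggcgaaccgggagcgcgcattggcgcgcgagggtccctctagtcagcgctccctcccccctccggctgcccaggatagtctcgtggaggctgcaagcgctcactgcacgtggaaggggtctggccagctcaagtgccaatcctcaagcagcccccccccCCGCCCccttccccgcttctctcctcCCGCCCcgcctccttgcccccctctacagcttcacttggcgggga

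The values of each library stood on whole reads. All 1297 of 1297 values of the factor table that stood for up to 2000 reads were whole to within 0.02 of a read, which gave 1470029 to 126805792 counted reads per library (median 14885310). For replicate 4 of wt day 2 the deposited *Hox* gene values gave 346039 reads in place of the 2686746 of the factor values, and in the other 44 libraries both gave the same depth, so the values without reads of that library are uncertain. A gene without reads was given the value of 0.9 reads, so its log2 RPKM depended on the depth of its library, and 58 of the 585 values of the 13 genes were of this kind. Exons of *Wnt5a*, *Wnt7b*, *Ctnnb1*, *Axin2* and *Nkx1-2* overlap an annotated gene on the other strand, and whether each library was stranded was not stated, so reads of the partners cannot be told apart in unstranded libraries. *Smchd1* was not among the 34 factors and the count columns of the time course were not used, so its deletion was not checked there. In 6 lines kept in 2i + LIF medium *Smchd1* was at 5.87 ± 0.482 RPKM in wt and 3.74 ± 0.535 in mat del lines (SD, n = 3 and 3), a log2 difference of -0.63 ± 0.14 (SE; edgeR, unadjusted p = 0.00231, adjusted p = 0.992 over all genes tested). The wt lines ran from 5.4 to 6.36 RPKM and the mat del lines from 3.24 to 4.3, without overlap. Of the markers of mESCs, *Pou5f1* was at 8.75 ± 0.34 and *Nanog* at 6.05 ± 0.31 log2 RPKM in wt cells of day 0 (SD, n = 4), and at 7.50 ± 2.38 and 5.31 ± 1.03 in mat del cells (SD, n = 3).

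There were 4 libraries that stood apart from their groups. In replicate 4 of mat del day 1, which came from line 2, none of the 17 factors on chromosomes 9 to 19 and X had a read, whereas 16 of the 17 factors on chromosomes 1 to 8 had reads. The former included 9 of the 13 genes and the latter *Wnt4*, *Cdx2* and *Wnt5b*, while *Nkx1-2* on chromosome 7 had no read there. *Ctnnb1* was at -5.84 log2 RPKM in this library and at 6.36 to 7.27 in replicates 1 to 3, and *Gsk3b* was at -6.76 against 1.83 to 2.74. The other 3 libraries were replicates 3 of wt day 2, mat del day 0 and mat del day 2.5, whose labels were filled in differently from those of all others. In these, *Ctnnb1* was at 4.63, 4.52 and 4.77 log2 RPKM, below the 6.11 to 7.85 of the other 41 libraries, and the median difference of the 13 genes from the other replicates of their group was -0.69, -1.25 and -0.99. *Pou5f1* was also low in them, at 4.88, 4.77 and 4.42. Of the other 41 libraries, those of days 0 to 2 held 7.36 or more and those of day 2.5 held 7.22 or more. The limma counts of called genes were therefore repeated without replicate 4 of mat del day 1 and without all 4 libraries. The column names of the factor values were taken as deposited. They disagreed with those of the count columns in most time course libraries, and which of the tables carries the right names was not determined. Every comparison of days and genotypes in the time course therefore rests on the names of the factor values. The 2i + LIF comparisons rest on the names of the count columns, which had no factor values to be checked against.

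**Figure D1:**
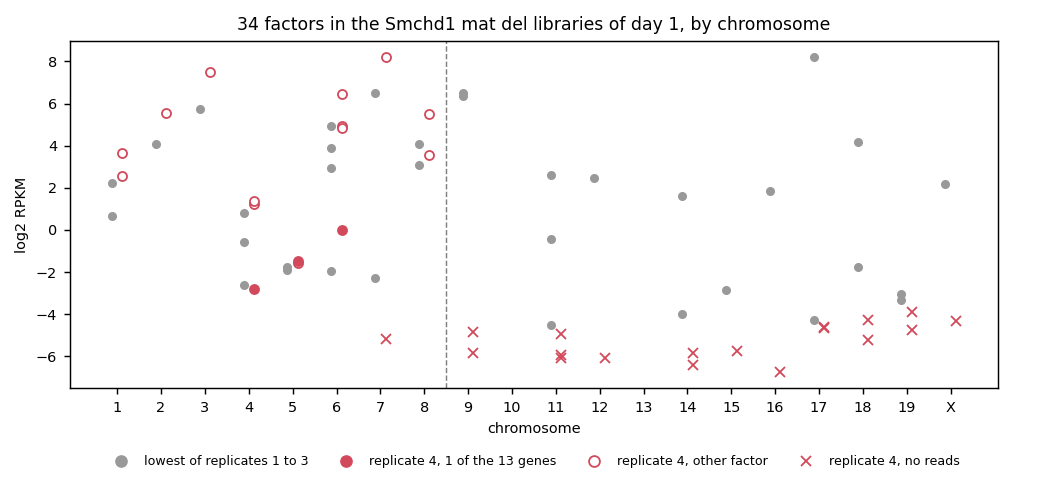
Log2 RPKM of the 34 factors in the mat del libraries of day 1 (y axis) by chromosome (x axis), with grey points for the lowest of replicates 1 to 3, red circles for replicate 4 (filled for the 13 genes) and crosses where replicate 4 had no reads. Right of the dashed line, on chromosomes 9 to 19 and X, all 17 factors were without reads in replicate 4, and left of it 16 of 17 had reads.

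The first question was when the genes came on. Between day 2 and day 2.5, after CHIR99021 was added, 9 of the 13 genes rose in wt cells and the same 9 rose in mat del cells, and none fell (limma, adjusted p under 0.05). They were *Fgf8*, *Wnt3a*, *Wnt5a*, *Wnt5b*, *Dkk1*, *Axin2*, *Nkx1-2*, *Cdx1* and *Cdx2*, whereas *Wnt4*, *Wnt7b*, *Ctnnb1* and *Gsk3b* did not pass the test in either genotype. Of all 34 factors 12 rose in wt (35.3%) and 11 in mat del cells (32.4%). The median change of the 13 genes was 4.18 in wt and 4.82 in mat del cells on the log2 scale, against 0.61 and 0.35 over the 34 factors. Without replicate 4 of mat del day 1, and without all 4 libraries, the counts were again 9 and 9, as they were with line 1 only (without the libraries 35.3% of the 34 factors in wt cells, and 32.4% and 29.4% in mat del cells). In wt cells 7 genes had every library of day 2.5 above every library of day 2 (32.4% of the 34 factors did), and in mat del cells 9 did (38.2%).

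**Figure D2:**
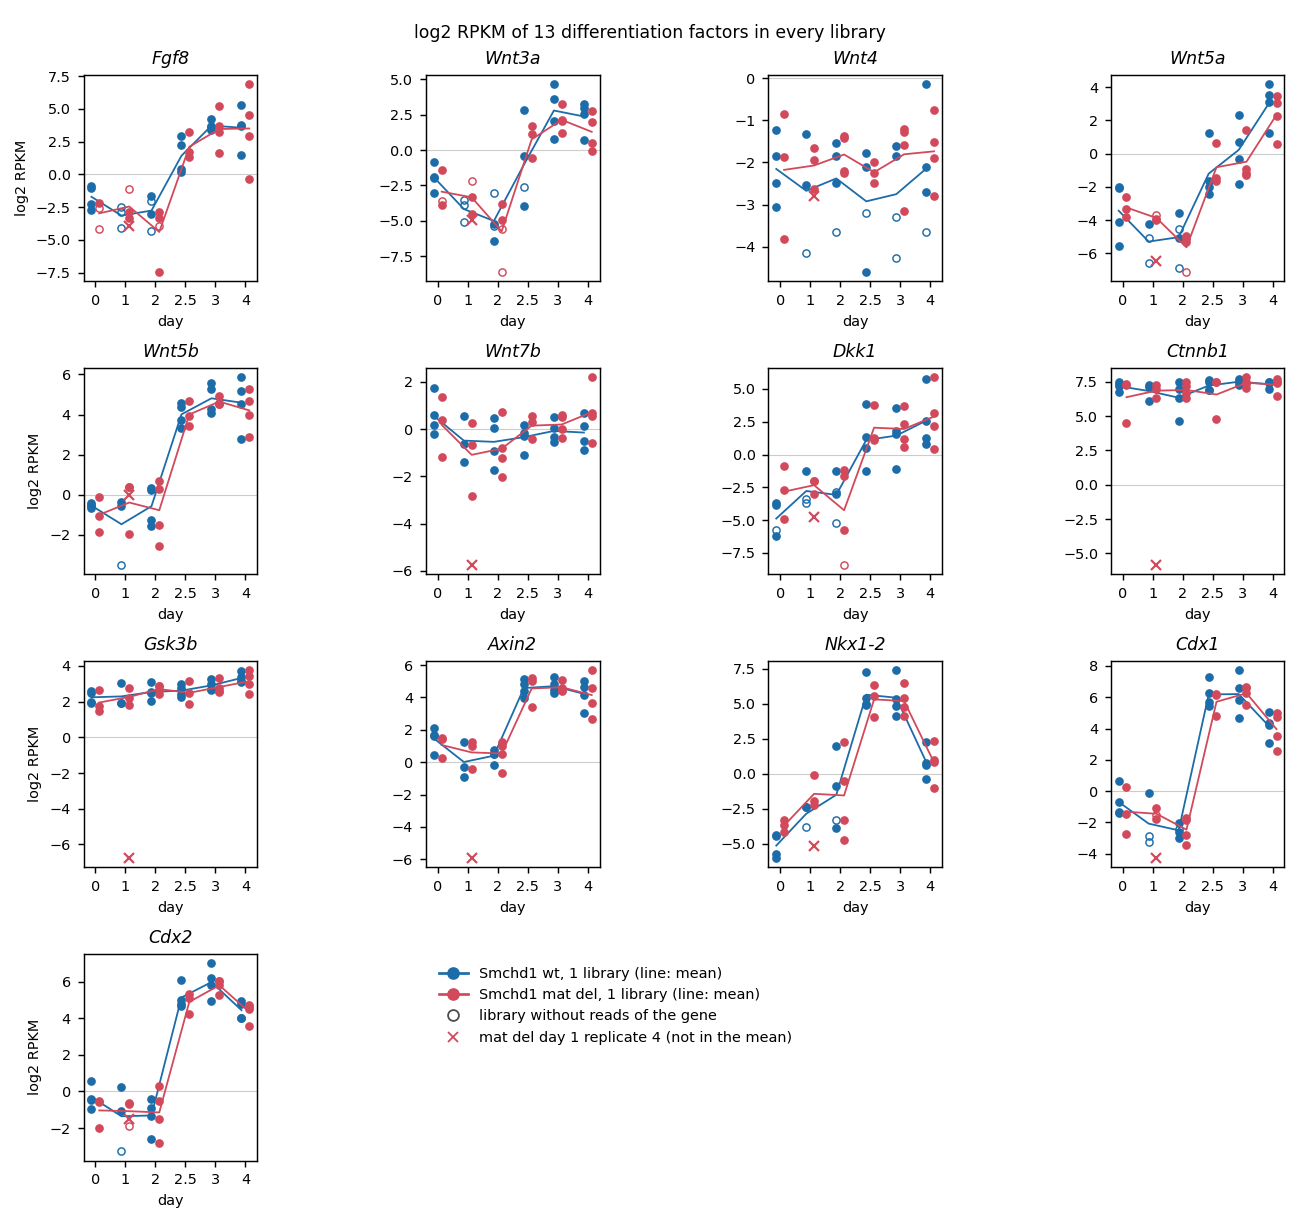
Log2 RPKM (y axis) by day of differentiation (x axis) for the 13 genes, with 1 point per library (wt blue, mat del red), lines through the group means, open points for libraries without reads of the gene and a cross for replicate 4 of mat del day 1, which is left out of the lines. *Cdx1*, *Cdx2*, *Nkx1-2*, *Wnt5b* and *Axin2* stepped up between days 2 and 2.5 in both genotypes, *Wnt4* lay below 0 throughout, and *Ctnnb1* lay highest, with wt means from 6.35 to 7.51.

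In wt cells the 3 transcription factors had the largest changes of the 13 genes. Values of libraries are given in the order of their replicate numbers. *Cdx1*, a homeobox gene that acts upstream of the *Hox* genes, held -2.05, -2.60, -2.97 and -2.39 log2 RPKM in the wt libraries of day 2 and 6.30, 7.28, 5.70 and 5.44 in those of day 2.5. The mat del libraries went from -1.73, -1.85, -2.79 and -3.47 to 6.21, 6.15 and 4.78. No library of day 2 came near any of day 2.5, and the rise was 8.68 ± 0.75 (SE, adjusted p = 7.27e-13) in wt and 8.17 ± 0.81 (SE, adjusted p = 3.95e-11) in mat del cells. *Cdx2* (chr5:147300805-147307270), its paralogue, went from -0.42, -0.88, -1.34 and -2.60 to 4.98, 6.10, 4.79 and 4.68 in wt libraries. In mat del libraries it went from 0.31, -0.54, -2.84 and -1.51 to 5.12, 5.33 and 4.23. Again the groups did not overlap, and *Cdx2* rose by 6.45 ± 0.63 (SE, adjusted p = 1.77e-11) and 6.03 ± 0.68 (SE, adjusted p = 8.77e-10). *Nkx1-2* (chr7:132594878-132599637), a homeobox gene of the NMPs and the preneural tube, was spread widely at day 2, at -0.87, 2.01, -3.87 and -3.28 in wt and -0.49, 2.26, -4.69 and -3.27 in mat del libraries, with replicate 2 the highest in both. At day 2.5 it held 5.44, 7.27, 4.90 and 4.96 and 5.54, 6.34 and 4.05, all above every library of day 2. The rise was 7.14 ± 1.13 (SE, adjusted p = 1.4e-06) in wt and 6.86 ± 1.22 (SE, adjusted p = 9.3e-06) in mat del cells.

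From day 0 to day 1 none of the 13 genes passed the test in wt cells (limma; 0 had an unadjusted p under 0.05, edgeR called 0, and 5.88% of the 34 factors fell). In mat del cells *Wnt7b* was called as falling, by 2.44 ± 0.87 (SE, adjusted p = 0.0456) (17.6% of the 34 factors fell), but without replicate 4 of day 1 its change was -1.27 and no gene was called. *Nkx1-2* was the exception at day 2. In wt cells it was the 1 gene of the 13 that rose from day 0 to day 2 (2.94% of the 34 factors did), from -6.01, -4.35, -5.70 and -4.44 log2 RPKM, which stood for 0 to 5 reads, by 3.63 ± 1.13 (SE, adjusted p = 0.00775). The wt libraries of day 2 had 55, 182, 3 and 0 reads of *Nkx1-2*, and the depth of replicate 4 is uncertain. The rise in wt cells was no longer past the test without replicate 2 of wt day 2 (2.45, adjusted p = 0.0821). The change of *Nkx1-2* in mat del cells was 2.16 ± 1.22 (SE, adjusted p = 0.208). Over the same interval 2 genes fell in wt cells (44.1% of the 34 factors did), *Cdx1* by 1.81 ± 0.75 (SE, adjusted p = 0.043) and *Wnt3a* by 3.09 ± 1.06 (SE, adjusted p = 0.0146). The call of *Cdx1* was lost without any 1 of 5 libraries (adjusted p = 0.0635 to 0.191, the highest without replicate 1 of wt day 0) and without all 4 libraries (0.0591), and when each library was centred on the median of the 34 factors its change was 0.24. Without replicate 1 of wt day 0 or without replicate 1 of wt day 2 *Wnt3a* was not past the test either (adjusted p = 0.0573 and 0.0588). Its change was -1.03 after centring (adjusted p = 0.653) and -0.31 on the log2(RPKM + 1) scale (adjusted p = 0.663). In mat del cells none of the 13 genes passed the test from day 0 to day 2 (limma; 2 did at an unadjusted p under 0.05, edgeR on the recovered reads called 1, and 8.82% of the 34 factors fell). Without all 4 libraries *Wnt3a* (-3.28) and *Wnt5a* (-2.68) were called as falling there, when 55.9% of the 34 factors fell.

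Of the 6 ligands, 4 rose with CHIR99021. *Wnt5b* (chr6:119432531-119544347), a ligand of the non-canonical Wnt branch, had the smallest SE of them, at 0.22, 0.33, -1.57 and -1.25 log2 RPKM in wt and 0.70, 0.27, -1.48 and -2.56 in mat del libraries of day 2. At day 2.5 it held 4.58, 4.39, 3.75 and 3.33 and 4.69, 3.92 and 3.41, with no overlap. It rose by 4.58 ± 0.72 (SE, adjusted p = 1.4e-06) in wt and 4.77 ± 0.77 (SE, adjusted p = 2.84e-06) in mat del cells. *Fgf8* (chr19:45736798-45742915), the FGF ligand of the streak and tailbud, was without reads in replicates 3 and 4 of wt day 2 and in replicate 2 of mat del day 2, and had 1 to 6 reads in the other libraries of that day. At day 2.5 it held 2.21, 2.91, 0.16 and 0.41 in wt and 1.73, 1.34 and 3.24 in mat del libraries, above every library of day 2. The rise was 4.18 ± 1.04 (SE, adjusted p = 0.00118) and 6.49 ± 1.13 (SE, adjusted p = 8.19e-06), and since day 2 held so few reads its size rests on the depth of those libraries.

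*Wnt3a* (chr11:59248033-59290752), the canonical Wnt ligand of the primitive streak, had 0 to 2 reads in every library of day 2. At day 2.5 the wt libraries held -0.41, 2.85, -2.61 and -3.99 log2 RPKM, from 0 reads in replicate 3 to 754 reads in replicate 2. Replicate 4, with 3 reads, still lay within the range of day 2. The value of replicate 3 was above that range without a read, through its low depth of 1983613 counted reads. The mat del libraries held -0.58, 1.71 and 1.13, all above those of day 2. *Wnt3a* rose by 3.98 ± 1.06 (SE, adjusted p = 0.00222) in wt and 6.50 ± 1.15 (SE, adjusted p = 8.91e-06) in mat del cells. Since day 2 held so few reads, both sizes rest on the depth of those libraries. *Wnt5a* (chr14:28504750-28527448), a non-canonical ligand of the tailbud, rose from -5.10, -3.59, -6.86 and -4.55 to -1.98, 1.23, -1.63 and -2.44 in wt libraries. In mat del libraries it went from -5.16, -5.33, -7.10 and -4.95 to -1.47, 0.63 and -1.62. Replicate 2 was the highest at day 2.5 in both genotypes, and the rise was 3.82 ± 0.94 (SE, adjusted p = 0.00113) in wt and 4.82 ± 1.02 (SE, adjusted p = 0.000124) in mat del cells. Replicates 3 and 4 of wt day 2 and replicate 3 of mat del day 2 had no read of *Wnt5a*. The sizes of its rises therefore rest partly on depth.

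The remaining 2 ligands did not pass the test. *Wnt4* (chr4:137277489-137299726), a ligand of kidney and gonad development, lay between -4.59 and -0.14 log2 RPKM in all 45 libraries, and its group means ran from -2.92 to -1.74. *Wnt7b* (chr15:85535437-85582473), a ligand of lung and placenta, had group means from -0.54 to 0.56 in wt cells, the highest at day 0, and 0.71 at day 4 in mat del cells. From day 2 to day 2.5 *Wnt4* changed by -0.55 ± 0.74 (SE, adjusted p = 0.706) in wt and *Wnt7b* by 0.20 ± 0.81 (SE, adjusted p = 0.909), and in mat del cells the changes were -0.42 ± 0.79 (SE, adjusted p = 0.764) and 0.97 ± 0.87 (SE, adjusted p = 0.464). The 95% confidence interval of the *Wnt4* change in wt cells ran from -2.03 to 0.94 and that of *Wnt7b* from -1.43 to 1.84, so changes within those bounds were not excluded here.

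*Dkk1* (chr19:30545863-30549665), which encodes a secreted inhibitor that binds the Wnt co-receptor LRP, was spread widely within groups. At day 2 it held -1.22, -5.22, -3.02 and -2.86 log2 RPKM in wt and -5.79, -1.64, -1.17 and -8.42 in mat del libraries, which stood for 0 to 32 reads. At day 2.5 the values were 1.34, 3.84, -1.27 and 0.52 and 1.24, 3.81 and 1.09, with replicate 2 the highest in both genotypes. In wt cells the lowest library of day 2.5, with 2 reads, lay just below the highest of day 2, whereas in mat del cells the days did not overlap. *Dkk1* rose by 4.19 ± 1.34 (SE, adjusted p = 0.0115) in wt and 6.30 ± 1.45 (SE, adjusted p = 0.000366) in mat del cells, and the wt call was lost without replicate 2 of day 2 (adjusted p = 0.063) or of day 2.5 (adjusted p = 0.0737). Replicate 4 of mat del day 2, the deepest library, had no read, so the size of the mat del rise rests partly on depth.

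Of the genes of the pathway inside the cell, only *Axin2* rose after CHIR99021 in both genotypes under the test. *Axin2* (chr11:108920349-108950783), a scaffold of the destruction complex that is itself induced by beta-catenin, was at 0.75, 0.50, -0.16 and 0.51 log2 RPKM in wt and 1.24, 1.02, 0.53 and -0.65 in mat del libraries of day 2. At day 2.5 it held 4.83, 5.14, 4.39 and 3.95 and 5.03, 5.20 and 3.43, a rise without overlap of 4.18 ± 0.87 (SE, adjusted p = 0.000139) in wt and 4.02 ± 0.94 (SE, adjusted p = 0.000416) in mat del cells. *Ctnnb1* (chr9:120929216-120960507), which encodes beta-catenin, had the highest level per length of the 13 genes, with wt group means from 6.35 to 7.51 log2 RPKM. *Gsk3b* (chr16:38089001-38246084), the kinase that CHIR99021 inhibits together with GSK3A, had wt group means from 2.24 at day 0 to 3.32 at day 4. From day 2 to day 2.5 *Ctnnb1* changed by 0.88 ± 1.38 (SE, adjusted p = 0.746) in wt and -0.33 ± 1.49 (SE, adjusted p = 0.848) in mat del cells, and *Gsk3b* by 0.08 ± 0.98 (SE, adjusted p = 0.965) and -0.21 ± 1.06 (SE, adjusted p = 0.848). The SE of both genes was set largely by replicate 4 of mat del day 1, since limma pools the spread of all groups. Without it the SE of the *Gsk3b* change in wt cells fell from 0.98 to 0.37 and that of *Ctnnb1* from 1.38 to 0.55, and neither gene was called at this step.

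These values moved with the scaling, and the 34 factors include pluripotency factors. When each library was centred on the median of the 34 factors, their median change from day 2 to day 2.5 shifted by -1.89 in wt and -1.93 in mat del cells. It then stood at -1.28 and -1.58. The 9 genes remained above 0 in both genotypes. In wt cells 5 genes then rose and 3 fell under the test, with *Fgf8*, *Wnt3a*, *Wnt5a* and *Dkk1* no longer called and *Wnt4*, *Wnt7b* and *Gsk3b* called as falling. In mat del cells 9 rose and *Wnt4*, *Ctnnb1* and *Gsk3b* fell. On the log2(RPKM + 1) scale, which compresses values of low genes, 5 genes were called in wt and 6 in mat del cells, where *Wnt3a* (adjusted p = 0.0589), *Wnt5a* (0.28) and *Dkk1* (0.0511) lost their calls. The shares of the 34 factors called under these settings are not given, so the counts are not a result about these genes alone.

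**Figure D3:**
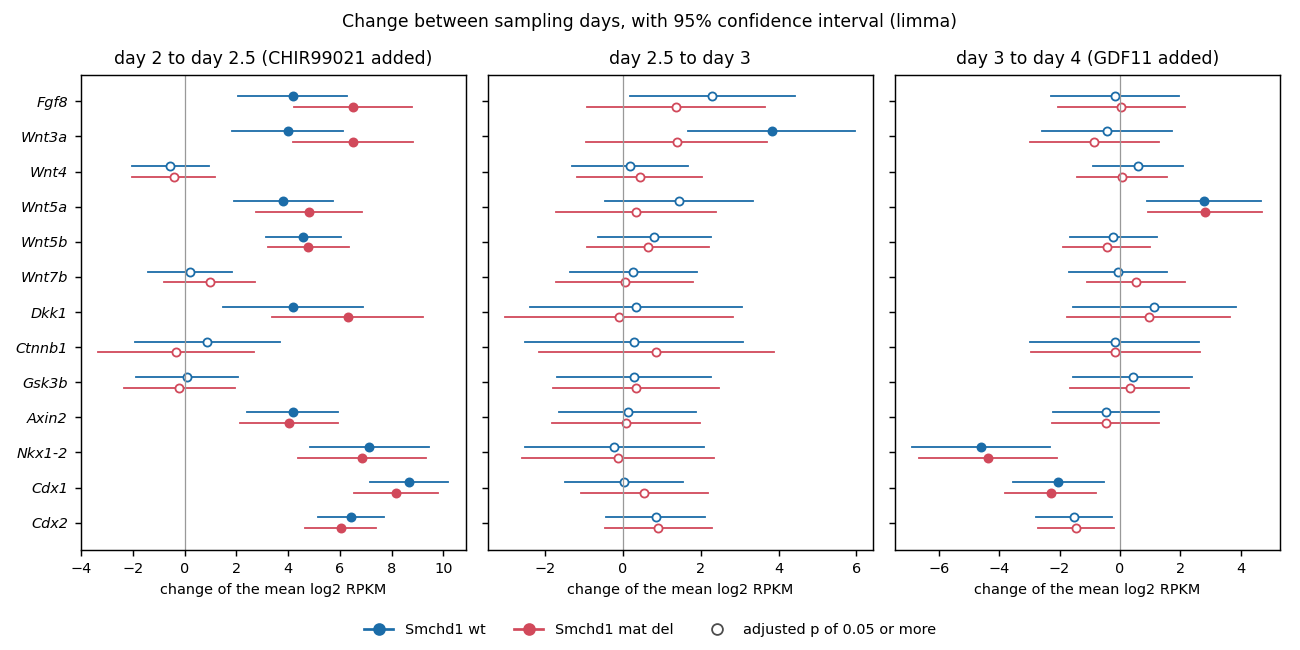
Change of the mean log2 RPKM (x axis) of the 13 genes (y axis) over 3 intervals, with points for the estimate and bars for the 95% confidence interval of limma, wt in blue and mat del in red, filled where the adjusted p was under 0.05. The 9 filled genes of the left panel lay between 3.82 and 8.68 in wt and between 4.02 and 8.17 in mat del cells, and in the right panel *Wnt5a* rose while *Nkx1-2* and *Cdx1* fell in both genotypes.

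Between day 2.5 and day 3, with CHIR99021 and FGF kept, 12 of the 13 genes in wt cells and all 13 in mat del cells did not pass the test. This comparison shares its day 2.5 libraries with the one before. In wt cells *Wnt3a* was the 1 gene that rose (2.94% of the 34 factors did), from -0.41, 2.85, -2.61 and -3.99 to 0.81, 4.67, 3.61 and 2.07 log2 RPKM. Replicate 2 was the highest on both days and replicate 1 of day 3 lay below replicate 2 of day 2.5. The rise was 3.83 ± 1.06 (SE, adjusted p = 0.0303), and it was lost without any 1 of 4 libraries (adjusted p = 0.135 to 0.364, the highest without replicate 4 of day 2.5) and in edgeR on the recovered reads (adjusted p = 0.269). *Fgf8* went from 1.42 ± 1.35 to 3.72 ± 0.33 log2 RPKM (SD, n = 4 and 4) without overlap and did not pass the test, with a change of 2.30 ± 1.04 (SE, adjusted p = 0.384). In mat del cells none of the 13 genes changed under limma, none had an unadjusted p under 0.05 and edgeR called 0, as for the 34 factors (0%). The changes there ran from -0.12 for *Nkx1-2* to 1.38 for *Wnt3a*.

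The second question was the response after GDF11 was added at day 3. In both genotypes 3 genes changed between day 3 and day 4, with *Wnt5a* rising (2.94% of the 34 factors rose) and *Nkx1-2* and *Cdx1* falling (17.6% fell). *Nkx1-2* had the largest change. It held 4.13, 7.39, 5.36 and 4.83 log2 RPKM in wt and 4.75, 6.50, 4.11 and 5.40 in mat del libraries of day 3. At day 4 it held 0.75, 2.30, 0.60 and -0.34 and 0.96, 2.37, -1.02 and 0.87, below every library of day 3. It fell by 4.60 ± 1.13 (SE, adjusted p = 0.0026) in wt and 4.39 ± 1.13 (SE, adjusted p = 0.00671) in mat del cells.

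*Cdx1* went from 4.69, 7.73, 6.58 and 5.83 to 4.34, 5.04, 4.26 and 3.05 log2 RPKM in wt libraries, where replicate 2 of day 4 lay above replicate 1 of day 3. In mat del libraries it went from 5.48, 6.65, 6.29 and 6.62 to 3.55, 5.0, 2.58 and 4.73, with no overlap. It fell by 2.04 ± 0.75 (SE, adjusted p = 0.0472) in wt and 2.29 ± 0.75 (SE, adjusted p = 0.0268) in mat del cells, and by 0.98 and 1.46 without passing the test when each library was centred on the median of the 34 factors, whose median change shifted by 1.05 and 0.84. *Cdx2* did not pass the test, with changes of -1.53 ± 0.63 (SE, adjusted p = 0.0779) and -1.46 ± 0.63 (SE, adjusted p = 0.0865). Without replicate 4 of mat del day 1 *Cdx2* was called in wt cells (adjusted p = 0.0429) and stood at the threshold in mat del cells (adjusted p = 0.0512), without all 4 libraries it was called in both (0.04 and 0.0493), and with the replicate number as a block it was called in both (adjusted p = 0.014 and 0.0181).

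*Wnt5a* was the 1 gene of the 13 that rose again after GDF11. It went from -1.85, 2.35, 0.71 and -0.32 to 3.51, 4.19, 3.10 and 1.22 log2 RPKM in wt and from -0.90, 1.43, -1.16 and -1.31 to 3.47, 3.06, 0.56 and 2.25 in mat del libraries. The ranges of the days overlapped in both genotypes, through replicate 2 of day 3. The rise was 2.78 ± 0.94 (SE, adjusted p = 0.036) in wt and 2.82 ± 0.94 (SE, adjusted p = 0.0268) in mat del cells. It was lost without any 1 of 5 libraries in wt (adjusted p = 0.0634 to 0.138) and any 1 of 5 in mat del cells (adjusted p = 0.0623 to 0.081), and the calls of *Cdx1* were lost without any 1 of 6 and of 4 libraries (adjusted p up to 0.204 and 0.128). On the recovered reads edgeR called *Nkx1-2* in both genotypes (adjusted p = 0.00266 and 0.012) and did not call *Wnt5a* in either (0.0663 and 0.0517). It called *Cdx1* (0.0256) and *Cdx2* (0.045) in wt cells and neither of them in mat del cells (0.0517 and 0.0839). The other 10 genes, *Cdx2* included, ran from -1.53 to 1.14 in wt and from -1.46 to 0.95 in mat del cells, and the median of the 13 genes was -0.17 and -0.15 against -1.02 and -0.92 over the 34 factors.

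Over the whole course 9 genes were higher at day 4 than at day 0 in wt cells and the same 9 in mat del cells, and none was lower. Of the 34 factors 29.4% rose in each genotype, and 50% fell in wt and 44.1% in mat del cells. The largest fitted rise in wt cells was that of *Dkk1*, from -4.88 ± 1.30 to 2.59 ± 2.24 log2 RPKM (SD, n = 4 and 4), by 7.47 ± 1.34 (SE, adjusted p = 5.64e-06), with 0 to 3 reads at day 0. That of *Fgf8* was the largest in mat del cells, from -2.97 ± 1.08 (n = 3) to 3.50 ± 3.05 (n = 4), by 6.47 ± 1.13 (SE, adjusted p = 4.82e-06), with 0, 0 and 8 reads at day 0. The sizes of both rises therefore rest on values near the floor of 0.9 reads and on depth, and so does their rank. *Gsk3b* was 1.08 higher at day 4 in wt and 1.19 higher in mat del cells, which passed the test without replicate 4 of mat del day 1 (adjusted p = 0.00682 and 0.00652; 32.4% of the 34 factors then rose in each genotype) and not with it (0.323 and 0.302). Its wt libraries held 1.97, 2.59, 2.48 and 1.93 log2 RPKM at day 0 and 3.15, 3.69, 3.36 and 3.10 at day 4, with no overlap. Against day 2 in place of day 0, 8 genes were higher at day 4 in each genotype (32.4% of the 34 factors in both), and *Nkx1-2*, at 0.83 ± 1.09 in wt and 0.80 ± 1.39 in mat del cells at day 4, was not called. Without replicate 4 of mat del day 1 these counts were 9 in wt (38.2% of the 34 factors) and 10 in mat del cells (41.2%), with *Nkx1-2* called in both (adjusted p = 0.0457 and 0.0427) and *Wnt7b* in mat del cells (0.0299). Without all 4 libraries they were 8 (35.3%) and 10 (41.2%), and *Nkx1-2* was not called in wt cells (adjusted p = 0.224).

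Onset was taken as the first day on which a gene was higher than at day 0 with an adjusted p under 0.05, on that day and on every later one. In wt cells 7 genes had their onset at day 2.5, *Nkx1-2* at day 2 and *Wnt3a* at day 3. For mat del cells 8 had it at day 2.5 and *Wnt5a* at day 3, which became day 2.5 without replicate 4 of mat del day 1. Without all 4 libraries *Wnt3a* in mat del cells had it at day 3. The genes higher than at day 0 numbered 8 at day 2.5 and 9 at day 3 in each genotype, against 26.5% and 29.4% of the 34 factors. *Wnt4*, *Wnt7b*, *Ctnnb1* and *Gsk3b* had no onset in either genotype, and *Gsk3b* had one at day 4 in both without that library. Measured from day 2, 16 of the 26 combinations of gene and genotype had an onset at day 2.5 and 10 had none; at day 3, 9 genes were higher than at day 2 in each genotype (32.4% of the 34 factors in wt and 35.3% in mat del cells). *Nkx1-2* was among the latter, with its level at day 4 not past the test against day 2 (2.33 and 2.34, adjusted p = 0.072 and 0.0702). Without replicate 4 of mat del day 1 *Nkx1-2* had an onset at day 2.5 from day 2 in both genotypes, and *Wnt7b* had one at day 4 in mat del cells. On the recovered reads edgeR gave both genotypes the same onsets from day 0, with *Nkx1-2* at day 2 and *Wnt3a* and *Wnt5a* at day 2.5. By ranges alone, with every library above every one of day 0, *Nkx1-2* had its onset at day 1 in wt cells. *Wnt3a*, *Wnt5a* and *Gsk3b* had theirs at day 3 there. The day 1 onset of *Nkx1-2* rests on depth. Replicate 4 of wt day 1 had 0 reads of it and lay at -3.79 log2 RPKM. The highest wt library of day 0, at -4.35, had 5 reads. The difference in onset day between genotypes was not itself tested.

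*Nkx1-2* had its highest mean at day 2.5 in both genotypes, at 5.64 in wt and 5.31 in mat del cells. *Cdx1*, *Cdx2*, *Axin2*, *Wnt3a* and *Wnt5b* had theirs at day 3 in both, and *Wnt5a* and *Dkk1* at day 4. For *Fgf8* the highest mean was at day 3 in wt (3.72) and day 4 in mat del cells (3.50). The means of days 2.5 and 3 did not differ beyond their error for *Axin2* (0.12 ± 0.87, SE, in wt cells), *Cdx1* (0.03 ± 0.75) or *Nkx1-2* (-0.22 ± 1.13 in wt and -0.12 ± 1.22 in mat del cells), so these values do not order their peaks. At day 3 the order of the wt means per length was *Ctnnb1* (7.51), *Cdx1* (6.21), *Cdx2* (5.98), *Nkx1-2* (5.43), *Wnt5b* (4.81), *Axin2* (4.70), *Fgf8* (3.72), *Gsk3b* (2.91), *Wnt3a* (2.79), *Dkk1* (1.44), *Wnt5a* (0.22), *Wnt7b* (-0.08) and *Wnt4* (-2.75) log2 RPKM. The libraries of neighbours in this order overlapped, except between *Axin2* and *Fgf8*, *Fgf8* and *Gsk3b*, and *Wnt7b* and *Wnt4*.

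Over the 12 group means *Cdx1* and *Cdx2* were most like each other among the 34 factors (Pearson r = 0.994). *Wnt5b* was most like *Cdx2* (0.987), *Fgf8* and *Dkk1* were most like *Wnt5b* (0.974 and 0.952), *Wnt3a* and *Wnt5a* were most like *Fgf8* (0.972 and 0.937), and *Nkx1-2* was most like *Cdx1* (0.906). *Axin2* was most like *Tbra* (0.991), the T-box gene of the primitive streak. For *Wnt4* the highest r was 0.267, with *Tbx3*. *Ctnnb1* and *Gsk3b* had an r of 0.938, and without replicate 4 of mat del day 1 the closest genes were *Wnt3a* (0.685) and *Wnt5a* (0.755). These values are descriptions over means that share their libraries.

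The third question was whether *Smchd1* mat del cells differed from wt cells. At none of the 6 days did limma call any of the 13 genes (0% of the 34 factors at each day). At days 0, 2, 2.5, 3 and 4 none of the 13 had an unadjusted p under 0.05, and edgeR on the recovered reads called 0 at each day. At day 1 the unadjusted p was under 0.05 for *Ctnnb1*, *Gsk3b* and *Wnt7b*, with differences of -3.15, -2.28 and -1.77 that became 0.02, -0.03 and -0.60 without replicate 4 of mat del day 1. Leaving out replicate 2 of mat del day 1 instead, which gives replicate 4 more weight, led to 3 genes called as lower, *Ctnnb1* (-4.35), *Gsk3b* (-3.19) and *Wnt7b* (-2.60).

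At day 2.5 the difference was 1.79 ± 1.15 (SE, adjusted p = 0.959) for *Wnt3a*, the largest of the 13, with wt libraries at -0.41, 2.85, -2.61 and -3.99 and mat del libraries at -0.58, 1.71 and 1.13 log2 RPKM. For *Cdx2*, the gene with the smallest SE, it was -0.25 ± 0.68 (SE, adjusted p = 0.959), with a 95% confidence interval from -1.62 to 1.13. The widest interval at that day, for *Ctnnb1*, ran from -3.67 to 2.37, and for *Dkk1* the interval ran from -1.99 to 3.87. *Nkx1-2* at day 0 was the 1 gene of the 13 without overlap between genotypes (2.94% of the 34 factors were higher in this way), with 0 to 5 reads per library. It was at -6.01, -4.35, -5.70 and -4.44 in wt and -3.32, -3.66 and -4.12 in mat del libraries, a difference of 1.43 ± 1.22 (SE, adjusted p = 0.758).

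The change from day 2 to day 2.5 was also compared between the genotypes directly. *Fgf8*, *Wnt3a* and *Dkk1* rose by 2.31, 2.52 and 2.12 more in mat del than in wt cells on the log2 scale, with 95% confidence intervals from -0.80 to 5.42, from -0.64 to 5.69 and from -1.88 to 6.11, and none passed the test (limma interaction, adjusted p = 0.981 for each). These differences rest partly on replicate 4 of mat del day 2, the deepest library. It had 1, 0 and 0 reads of these genes, at -7.42, -8.6 and -8.42 log2 RPKM. Replicates 1 to 3 of that group held at least -3.95, -5.6 and -5.79. Replicate 4 came from line 2, which has no mat del library at day 2.5. For *Cdx1* and *Cdx2* the difference of the changes was -0.51 and -0.41, with intervals from -2.74 to 1.72 and from -2.29 to 1.46. The change from day 3 to day 4 differed by 0.04 for *Wnt5a*, 0.21 for *Nkx1-2* and -0.26 for *Cdx1*, and the interval of *Nkx1-2* ran from -3.03 to 3.45. None of the 13 genes was called in these or in the change from day 0 to day 4, none had an unadjusted p under 0.05, edgeR called 0, and 0% of the 34 factors were called. Differences within these intervals were not excluded by these libraries.

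**Figure D4:**
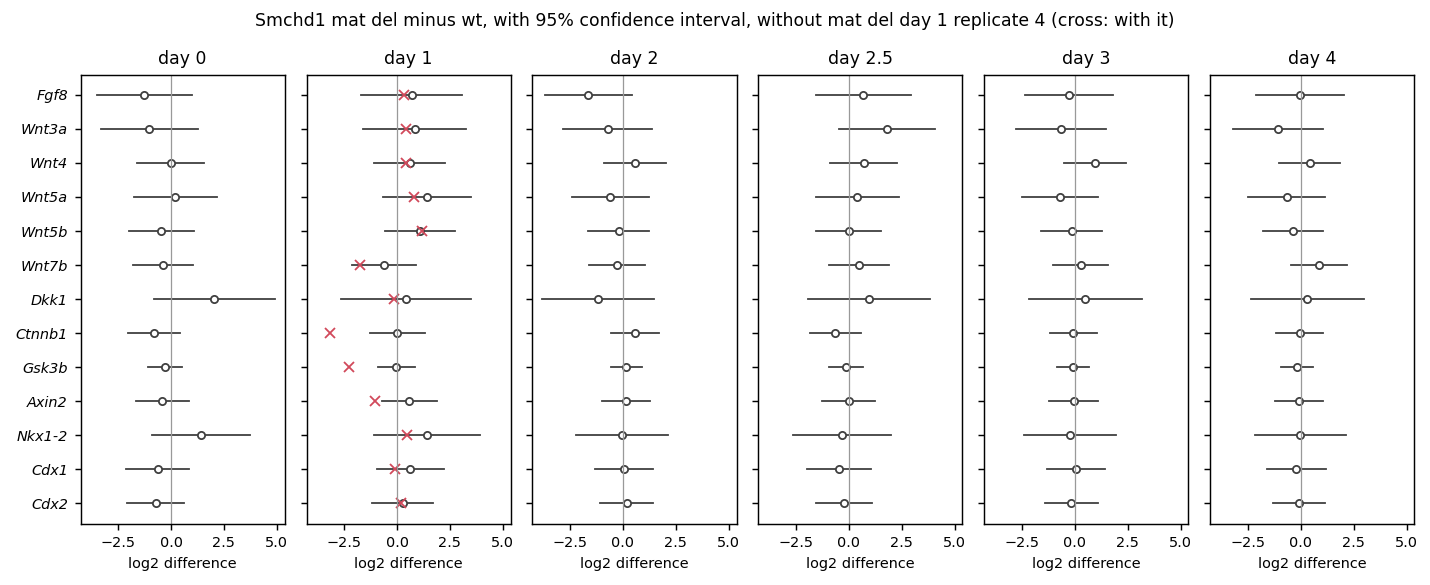
Difference in log2 RPKM of *Smchd1* mat del minus wt cells (x axis) for the 13 genes (y axis) at each day, with bars for the 95% confidence interval of limma, fitted without replicate 4 of mat del day 1, and crosses for the estimate with it. All 13 intervals include 0 at every day, and at day 1 the crosses of *Ctnnb1*, *Gsk3b* and *Wnt7b* lie at -3.15, -2.28 and -1.77.

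In the 6 lines in 2i + LIF medium, 3 per genotype with 27526359 to 126716460 counts each, 9 of the 13 genes passed the filter on low counts and none differed between genotypes (edgeR, lowest adjusted p = 0.992; 0% of 17696 genes). *Wnt5b* had an unadjusted p of 0.0459 (-1.03 ± 0.44 log2, SE), at 0.970 ± 0.515 RPKM in wt and 0.471 ± 0.198 in mat del lines (SD, n = 3 and 3), 1 of 397 genes under 0.05 before adjustment, and DESeq2 called 0 of the 13. *Wnt4*, *Wnt5a*, *Dkk1* and *Cdx2* did not pass the filter. Of 72 other genes of the Wnt pathway 58 were tested and none was called, with 1 under an unadjusted p of 0.05 (*Tcf7l2*, a transcription factor of the pathway, 0.57 ± 0.21 log2) and a median difference of 0.01 against -0.01 over all genes. In these lines all 8 markers of mESCs were above 1 RPKM and summed to 1210 to 1440 RPKM. The 7 markers of primitive endoderm summed to 2.17 to 2.78, the 7 of trophoblast to 12 to 17.0 and the 7 of fibroblasts to 1.48 to 2.89 RPKM. In each genotype 1 of the primitive endoderm and 4 of the trophoblast markers had a mean above 1 RPKM. Among the fibroblast markers 0 did in wt and 1 in mat del lines.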

How the data were processed

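PolyA RNA of 45 time course libraries and 6 lines in 2i + LIF medium was sequenced. The authors trimmed reads with Trim Galore 0.4.4, mapped them to GRCm38.p6 with HISAT2 2.0.5 and deposited log2 RPKM values made in SeqMonk, corrected for library size and transcript length. The deposited raw counts per gene were used for the 2i + LIF lines only. The 45 time course count columns were not used, because reads recovered from the log2 RPKM values equalled the identically named count column in 7 libraries, a differently named one in 35 and none in 3. Columns of the authors' own comparisons were not used.

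Groups came from the labels. The 34 factors were fitted with limma 3.58.1 over all 12 groups (R 4.3.3), with Benjamini-Hochberg adjustment over the 34 and a threshold of 0.05. Counts were tested with edgeR 4.0.16 (quasi-likelihood), with DESeq2 1.42.0 as an alternative, and reads recovered from the log2 RPKM values with edgeR. The fits were also run on simulated data. For limma these held neither values of genes without reads nor libraries that stood apart, so the simulation does not cover those. All 13 members were named, and the members and lists were chosen with earlier results of these data known. Alternatives without the 3 libraries labelled otherwise or all 4 were chosen after seeing the data. Same-numbered libraries deviated together in every pair (r over 0.1) for wt day 3 to day 4 (0.306 to 0.603), mat del day 2 to day 2.5 (0.309 to 0.482) and the genotypes at day 0 (0.328 to 0.672). For wt day 3 to day 4 the replicate block gave 4 calls in place of 3.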

Additional observations from a re-analysis of the deposited data

Results flagged for a closer look

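Of 117 combinations of gene and group with 4 libraries, 5 held a library far from the other 3 by Dixon's test, and chance gives about 1 in 20. In replicate 4 of mat del day 1, *Wnt5a* was at -6.43 log2 RPKM (the others from -4.01 to -3.68), *Ctnnb1* at -5.84 (6.36 to 7.27) and *Gsk3b* at -6.76 (1.83 to 2.74), each without a read. In replicate 2 of mat del day 3, *Wnt5a* was at 1.43, above -1.31 to -0.90, and *Wnt5b* at 4.93, above 4.53 to 4.58.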

How the results depend on the processing

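Counts below are of the 13 genes past the threshold, and the shares of the 34 factors are not given with them. From day 0 to day 2 in wt cells (3 in the report) the count was 0 on the log2(RPKM + 1) scale, 5 with the replicate block and without replicate 4 of mat del day 1, and 1 to 3 leaving out 1 library. In mat del cells (0 in the report) it was 2 after centring on the median of the 34 factors, 1 with edgeR on recovered reads, 1 with the replicate block, 2 without the 4 libraries, 3 with the block and without replicate 4 of mat del day 1, 2 with edgeR without the 4 libraries, and 0 to 1 leaving out 1 library. From day 2 to day 2.5 in wt cells (9) it was 5 on the log2(RPKM + 1) scale. From day 2.5 to day 3 in wt cells (1) it was 0 after centring, with the groups of the comparison only, with edgeR with and without the 4 libraries, and with line 1 only, and 0 to 1 leaving out 1 library. From day 3 to day 4 it was 1 to 4 in wt (3) and 1 to 3 in mat del cells (3) leaving out 1 library, and 1 in mat del cells with edgeR. Between genotypes at day 1 (0) it was 0 to 3 leaving out 1 library. Onsets at day 2.5 measured from day 2 (16) numbered 9 on the log2(RPKM + 1) scale and 15 to 18 leaving out 1 library. Centring turned 3 changes, to 0.24 for *Cdx1* from day 0 to day 2 and to -1.69 for *Wnt7b* and -1.82 for *Gsk3b* from day 2 to day 2.5, all in wt cells. The causes were not tested. Pairing by replicate number in the 2i + LIF lines gave 0 calls. Where same-numbered libraries deviated together, the replicate block gave 9 calls for mat del day 2 to day 2.5 and 0 for the genotypes at day 0. Leaving out the libraries labelled otherwise was chosen after seeing the data. Values of genes without reads are limited by depth.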

Other observations

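Of the 9 genes that rose after CHIR99021, replicate 2 was the highest library for 3, 3, 4, 8, 8 and 8 from day 0 to day 4 in wt cells, and for 2, 3, 2, 6, 7 and 6 in mat del cells. Of all 34 factors it was the highest for 7, 14, 16, 16, 16 and 17 in wt and for 9, 8, 9, 21, 17 and 23 in mat del cells. In 2i + LIF medium, which itself contains CHIR99021, *Cdx1* was at 6.31 ± 2.31 RPKM in wt and 6.95 ± 3.14 in mat del lines, and *Cdx2* at 0.0198 ± 0.0343 and 0.0442 ± 0.0198 (SD, n = 3 and 3). *Axin2* was at 4.20 ± 1.27 and 4.11 ± 0.633 RPKM, and *Nkx1-2* at 1.65 ± 0.782 and 0.869 ± 0.414.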
